A study of Homo sapiens with 6 samples.

Results

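NF-κB is a family of dimeric transcription factors, and its subunits and inhibitors are the subject here: the genes RELA, REL, RELB, NFKB1, NFKB2, NFKBIA, NFKBIB, NFKBIE, NFKBIZ and BCL3. These 10 genes were taken by symbol from a table of 23250 genes, and all 10 were found and passed the filter on low counts. The cells were OCI-LY1, a human lymphoma line established from a diffuse large B cell tumour, and their RNA was sequenced. In all libraries the cells had received siRNA against BCL6, a transcriptional repressor required for germinal centres, and BCL6 was then expressed from an introduced copy. That copy was normal in 3 libraries, called wild-type libraries below, and mutated in its second repression domain, RD2, in the other 3, called mutant libraries. No group lacked siRNA or a rescue, and all libraries came from 1 cell line.

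In resting cells, NF-κB dimers are held in the cytoplasm by IκB proteins. Receptor signals activate the IKK kinase complex, which marks IκB for destruction and lets the dimers enter the nucleus. RELA, REL and RELB carry activation domains, whereas NFKB1 and NFKB2 encode precursors that are processed to the DNA-binding partners p50 and p52. Several family genes are themselves switched on by NF-κB, which makes a feedback loop. In germinal centre B cells the pathway is mostly quiet and becomes active in a subset that is leaving the reaction, and BCL6 and NF-κB are known as opposing programmes in B cell lymphoma.

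The κB site, the short DNA element that NF-κB dimers bind, is shown first because sequence matches to it lay before starts of several members. RefSeq promoter sequences (assembly GRCh38.p14) were matched by symbol for 8 of the 10 genes, with 14 annotated starts between them, and RELB and NFKBIE were not among them. The 250 bases before each start were searched on both strands for the κB consensus, taken as GGGRNNYYCC (R is A or G, Y is C or T, N is any base). Matches lay before at least 1 start of 6 genes, REL, NFKB1, NFKB2, NFKBIA, NFKBIB and NFKBIZ, and before 8 of the 14 starts. Among all 35116 promoters of the same length, 9.96% held a match, and among 27305 genes 11.8% held one before at least 1 start. The following stretches of 30 bases show these matches in capitals, each 5′ to 3′ on the strand of its gene, and where a gene had several matches the one holding the word described next was taken, or for NFKB2 the one nearest a start.
REL (chr2:60881518-60881547, plus strand): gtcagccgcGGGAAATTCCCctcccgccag
NFKB1 (chr4:102501300-102501329, plus strand): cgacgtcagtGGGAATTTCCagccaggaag
NFKB2 (chr10:102395674-102395703, plus strand): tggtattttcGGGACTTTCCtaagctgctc
NFKBIA (chr14:35404811-35404840, minus strand): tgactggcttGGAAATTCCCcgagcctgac
NFKBIB (chr19:38899932-38899961, plus strand): ggcgtggtgGGGAATTTCCCgcagggcgga
NFKBIZ (chr3:101827757-101827786, plus strand): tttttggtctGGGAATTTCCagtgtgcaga

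In REL and NFKBIB the capitals span 11 bases, because matches on both strands overlap. The same 10 bases, GGGAATTTCC, occurred on one strand or the other before a start of 5 of the 8 genes, namely REL, NFKB1, NFKBIA, NFKBIB and NFKBIZ. This word was picked after the sequences were seen, as the one held by the most members. It was held by 50 of the 35116 promoters (0.142%) and by 48 of the 27305 genes (0.176%). In REL and NFKB1 it lay within bases that GENCODE v29 also annotates as exon. In NFKB1 it ended 40 bases before the start, in NFKBIA 72 bases and in the upstream start of NFKBIZ 214 bases before it. None of the 14 windows held the BCL6 core TTCCTNGAA on either strand, against 1.37% of all promoters. A match is a description of letters and not of binding, which was not measured here.

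For 2 inhibitors with a match, no exon of the GENCODE v29 annotation fell in the window before that start. Their whole 250 bases are given, with the κB match in capitals, so that its surroundings can be read.
NFKBIA (chr14:35404750-35404999, minus strand): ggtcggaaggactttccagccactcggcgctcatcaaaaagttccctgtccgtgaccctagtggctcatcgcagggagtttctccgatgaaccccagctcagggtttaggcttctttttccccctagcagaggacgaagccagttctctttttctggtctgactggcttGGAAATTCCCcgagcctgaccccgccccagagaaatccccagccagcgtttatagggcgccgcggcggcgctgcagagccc
NFKBIZ (chr3:101827740-101827989, plus strand): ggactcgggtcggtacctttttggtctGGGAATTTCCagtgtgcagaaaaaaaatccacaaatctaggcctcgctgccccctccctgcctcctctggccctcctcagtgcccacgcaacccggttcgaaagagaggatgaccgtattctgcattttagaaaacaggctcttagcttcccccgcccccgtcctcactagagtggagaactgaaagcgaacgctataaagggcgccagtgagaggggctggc

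**Figure D1:**
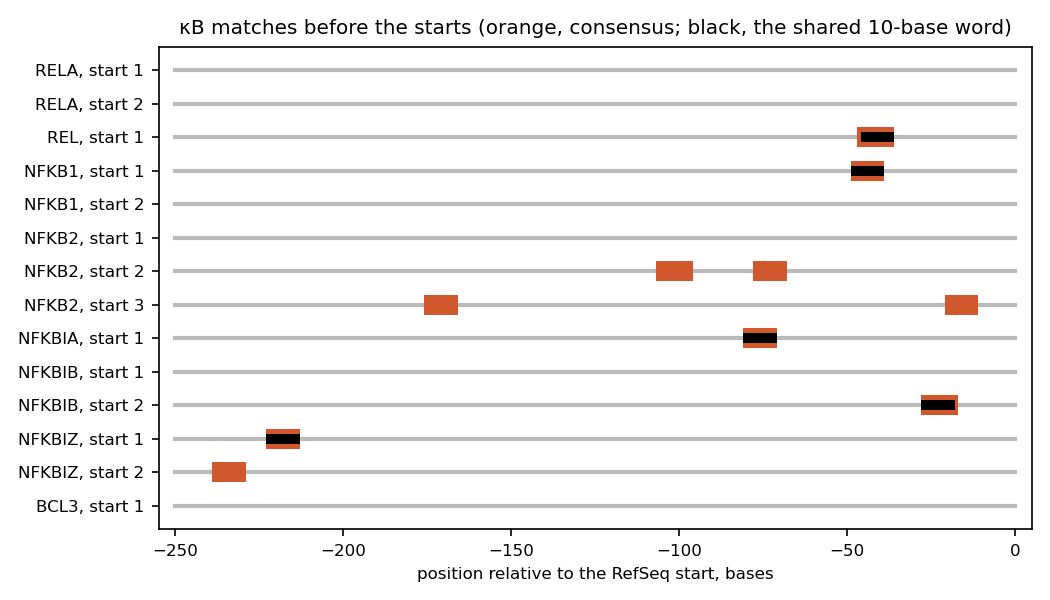
Positions of κB consensus matches (orange) and of the 10-base word shared by 5 genes (black) in the 250 bases before each RefSeq start, in bases from the start (x axis), with 1 line per start. Matches lie before 8 of the 14 starts, and RELA and BCL3 have none.

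The libraries held 26298456 to 27574867 counts. Levels below are CPM, counts scaled to library size with TMM factors, as mean ± SD over n = 3 libraries, and fold changes are mutant relative to wild-type libraries. Changed means an adjusted p under 0.05 in edgeR's quasi-likelihood test over 12406 tested genes. Since no label says that the libraries of a group were separate cultures, the p-values cover only the spread among these libraries, and that spread may be technical. BCL6 transcript itself differed, at 679 ± 24.3 CPM in wild-type and 519.9 ± 8.71 CPM in mutant libraries (edgeR, adjusted p = 7.90e-10). These counts do not separate the cells' own transcript from that of the introduced copy. Since this level differed, the amount of BCL6 transcript and the RD2 mutation cannot be told apart. The B cell markers CD79A, CD79B, PAX5, MS4A1 and CD22 were all present. The 22 T cell, NK cell, myeloid and fibroblast markers each averaged at most 1 CPM, and of 5 epithelial markers EPCAM alone was above this level, with a list sum of 15.6 to 16.8 CPM in wild-type and 3.47 to 4.06 CPM in mutant libraries. The part of EPCAM in the results below was not tested.

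One subunit stood out in size. REL, the c-Rel subunit that germinal centre B cells rely on, fell 2.46-fold, whereas RELB, of the alternative pathway, and 4 of the 5 inhibitor genes rose by 1.12-fold to 1.70-fold. Of the 10 genes, 5 rose, 2 fell and the other 3 missed the threshold. Of all tested genes 70.1% changed (35.4% rose and 34.8% fell), so 7 changed genes in 10 was no more than the background. The members' median log2 fold change was 0.18, against 0.01 over all tested genes, and their median absolute log2 fold change was 0.22, against 0.29. The groups did not overlap in CPM for 6 of the 10 genes, as for 72.4% of tested genes. REL was the 1 member that changed at least 2-fold, as did 9.51% of tested genes, or 3.22% in the lower direction alone. When a change above 1.2-fold was required (glmTreat in edgeR), RELB and NFKBIZ were higher and REL lower, and 37.0% of all tested genes passed.

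**Figure D2:**
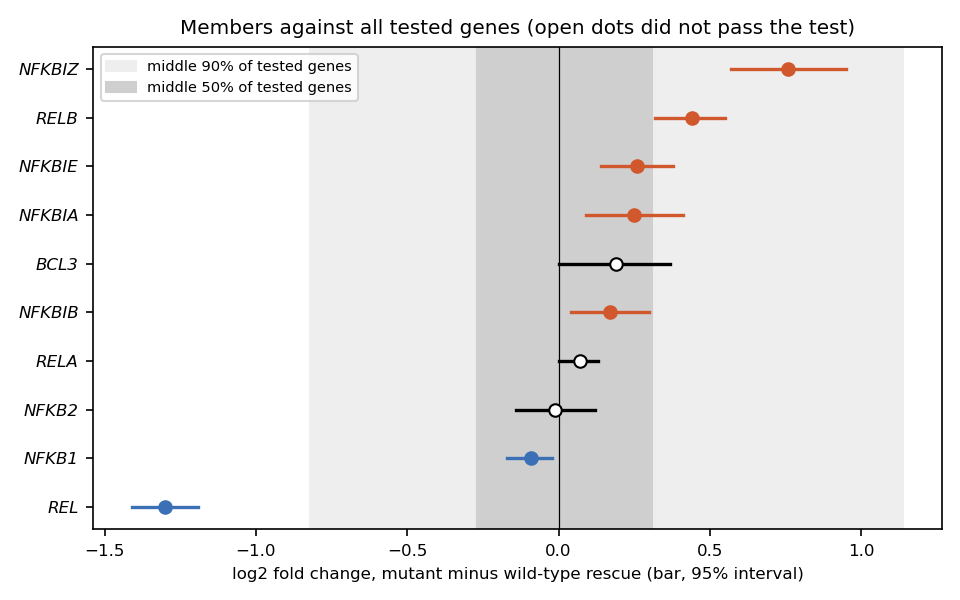
Log2 fold change of each gene, mutant minus wild-type (x axis), with its 95% interval from the edgeR fit; filled dots passed the test and open dots did not. The grey bands hold the middle 50% and 90% of tested genes. REL lies below the band of 90%, at -1.30, and NFKBIZ and RELB above the band of 50%.

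Among the subunits with activation domains, REL had 1775, 1839 and 1781 counts in wild-type libraries and 679, 767 and 734 in mutant libraries. The groups lay far apart, the lowest wild-type library being at 64.8 CPM and the highest mutant library at 28.6 CPM. The mean went from 66.8 ± 3.11 to 27.2 ± 1.65 CPM (log2 fold change -1.30, SE 0.052, 95% interval -1.41 to -1.19; edgeR, adjusted p = 5.29e-15). By absolute log2 fold change, 5.92% of tested genes changed more than REL. In GENCODE v29, 5702 of the 13170 exonic bases of REL also belong to AC010733.2 on the same strand, and no source used here says how reads there were assigned.

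RELA, the main partner of p50 in canonical signalling, was the most abundant subunit. Its levels were 169.7, 171 and 173 CPM in wild-type libraries and 178, 178 and 183 CPM in mutant libraries. The groups did not overlap, but the gap was small and did not pass the test (log2 fold change 0.07, 95% interval 0.00 to 0.13; edgeR, adjusted p = 0.0616). The interval excludes a change of the size seen for REL. Without mutant replicate 2 the difference passed, at the same log2 fold change of 0.07 (edgeR, adjusted p = 0.0216).

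RELB, which pairs with p52 in the alternative pathway, moved opposite to REL. Its counts were 787, 696 and 761 in wild-type libraries and 1008, 943 and 1063 in mutant libraries. Every mutant library was above every wild-type library. The level rose 1.35-fold, from 27.8 ± 1.04 to 37.6 ± 2.41 CPM (log2 fold change 0.44, SE 0.055; edgeR, adjusted p = 4.80e-07).

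The precursor genes hardly moved. NFKB1, the source of p50, had 117, 116 and 118 CPM in wild-type libraries and 109.7, 112 and 107 CPM in mutant libraries, with no overlap between the groups. It fell by 0.09 on the log2 scale (95% interval -0.17 to -0.02; edgeR, adjusted p = 0.0198). This call did not hold without wild-type replicate 3 (edgeR, adjusted p = 0.0736), without mutant replicate 3 (0.0987) or with library size scaling (0.0535). NFKB2, the source of p52, had 471, 480 and 491 counts in wild-type libraries and 488, 461 and 470 in mutant libraries, so the groups overlapped. Its log2 fold change was -0.01 with a 95% interval of -0.14 to 0.12 (edgeR, adjusted p = 0.853). NFKB2 thus did not show the rise seen in RELB, its partner gene, and the interval of NFKB2 lies below that of RELB (0.32 to 0.55).

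**Figure D3:**
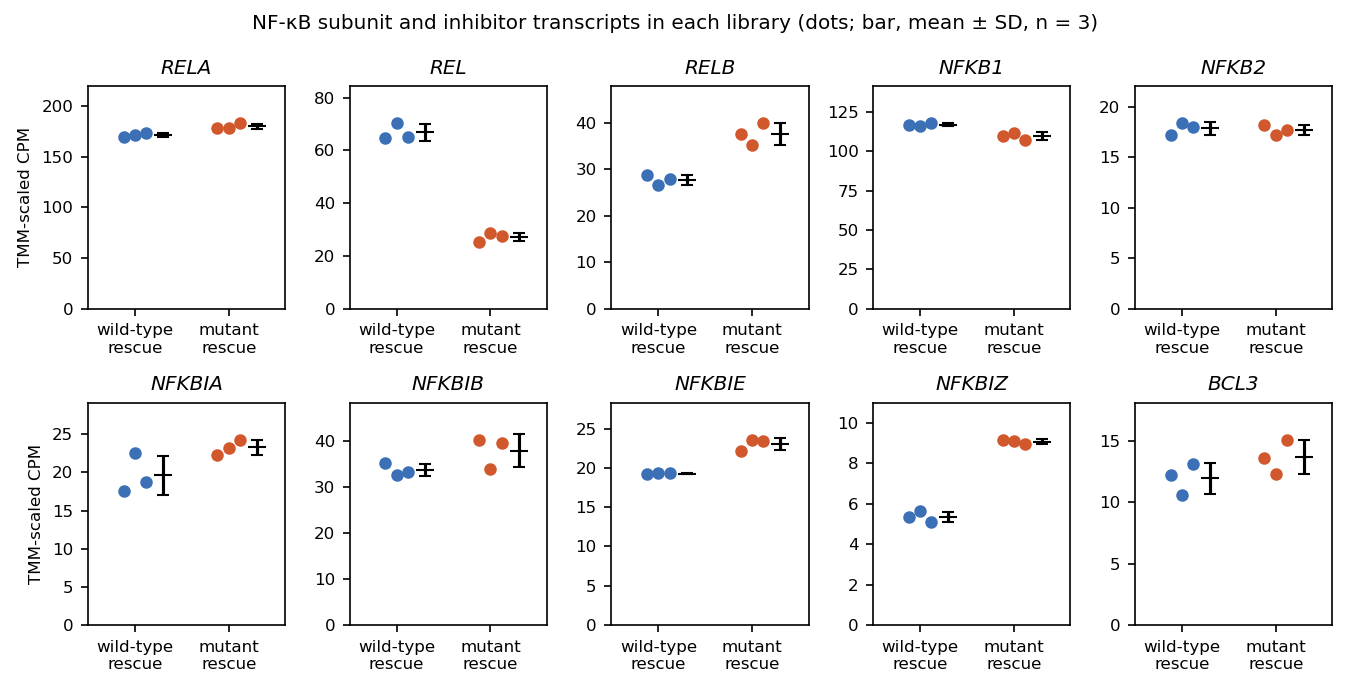
TMM-scaled CPM of the 10 genes in each library (dots, blue wild-type and orange mutant), with mean ± SD over 3 libraries beside them; every y axis starts at 0 and has its own scale. REL and NFKB1 are lower and RELA, RELB, NFKBIE and NFKBIZ are higher in all 3 mutant libraries than in any wild-type library. For NFKB1 and RELA the gap is small.

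Among the classical inhibitors, which hold dimers in the cytoplasm, the rises were modest. NFKBIE, encoding IκBε, had 526, 504 and 525 counts in wild-type libraries and 594, 634 and 622 in mutant libraries, without overlap. It rose from 19.2 ± 0.0531 to 23.1 ± 0.774 CPM (log2 fold change 0.26, SE 0.058; edgeR, adjusted p = 4.38e-04).

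NFKBIA, encoding IκBα, an inhibitor that NF-κB itself induces, had 17.5, 22.5 and 18.8 CPM in wild-type libraries and 22.3, 23.2 and 24.3 CPM in mutant libraries. Wild-type replicate 2 lay within the range of the mutant libraries, so the groups overlapped. The rise of 1.19-fold passed the test (log2 fold change 0.25, 95% interval 0.09 to 0.41; edgeR, adjusted p = 0.00741). Without wild-type replicate 1 the log2 fold change was 0.17 and the call was lost (edgeR, adjusted p = 0.0611), as it was without wild-type replicate 3 (0.0539).

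NFKBIB, encoding IκBβ, had 966, 851 and 905 counts in wild-type libraries and 1080, 907 and 1053 in mutant libraries. Mutant replicate 2 was within the wild-type range in CPM (33.8, against 32.6 to 35.2). The rise was 1.12-fold (log2 fold change 0.17, 95% interval 0.04 to 0.30; edgeR, adjusted p = 0.0182). It was lost without wild-type replicate 2 (edgeR, adjusted p = 0.0862) or 3 (0.0793), and without mutant replicate 1 (0.0922) or 3 (0.0859). SIRT2 on the opposite strand shares 40 of the 2324 exonic bases of NFKBIB in GENCODE v29, and no source used here gives the strand setting of the counts.

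The atypical inhibitors act in the nucleus and can also help transcription by binding p50 or p52 dimers on DNA. NFKBIZ, encoding IκBζ, had 146, 147 and 139 counts in wild-type libraries and 246, 244 and 238 in mutant libraries. The libraries were tight within each group and wide apart between them. NFKBIZ rose 1.70-fold, from 5.35 ± 0.265 to 9.07 ± 0.121 CPM (log2 fold change 0.76, SE 0.091; edgeR, adjusted p = 2.36e-07), the largest rise among the 10 genes. BCL3 had 335, 278 and 357 counts in wild-type libraries and 364, 331 and 402 in mutant libraries, and the groups overlapped. Its log2 fold change of 0.19 (95% interval 0.00 to 0.37) missed the threshold (edgeR, adjusted p = 0.0627) and passed it without wild-type replicate 3 (0.26; edgeR, adjusted p = 0.0343) or mutant replicate 2 (0.26; edgeR, adjusted p = 0.00887). Without wild-type replicate 2 it was 0.12 (edgeR, adjusted p = 0.284), and without mutant replicate 3 it was 0.11 (edgeR, adjusted p = 0.315).

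Promoter matches were found both in genes that rose and in genes that fell, and whether they bear on the changes was not tested. Of the 5 genes with the shared 10-base word, REL and NFKB1 fell and NFKBIA, NFKBIB and NFKBIZ rose. The calls of NFKB1, NFKBIA and NFKBIB were lost when some single libraries were left out. RELB and NFKBIE, which rose, had no promoter sequence to search. NFKB2, with other matches to the consensus, did not pass the test. Neither did RELA and BCL3, whose windows held no match to the consensus but did hold the looser form.

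To compare levels between genes, CPM was divided by the length of each gene's longest GENCODE v29 transcript. In wild-type libraries the order of CPM per kb was RELA (53.8 ± 0.516), NFKB1 (28.6 ± 0.207), NFKBIB (15.3 ± 0.634), NFKBIA (12.6 ± 1.66), RELB (12.1 ± 0.455), NFKBIE (7.46 ± 0.0206), REL (5.94 ± 0.276), BCL3 (5.88 ± 0.610), NFKB2 (5.23 ± 0.179) and NFKBIZ (1.36 ± 0.0676). In that order NFKBIA and RELB, REL and BCL3, and BCL3 and NFKB2 overlapped between libraries. In mutant libraries RELB reached 16.4 ± 1.05 CPM per kb and overlapped NFKBIB (17.2 ± 1.62) and NFKBIA (14.9 ± 0.639). REL dropped to 2.41 ± 0.147 CPM per kb and then overlapped NFKBIZ (2.31 ± 0.0307), the lowest of the 10. The place of REL depends on its length, since its longest transcript has 11255 bases and that of RELA 3183.

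As shares of the summed CPM per kb of the 5 subunits, REL made up 5.47%, 5.93% and 5.45% of the pool in the wild-type libraries and 2.11%, 2.39% and 2.25% in the mutant libraries. RELB went the other way, from 11.9%, 11.0% and 11.4% to 15.4%, 14.4% and 16.0%. RELA was the largest part of the pool, at 50.9% ± 0.215 and 52.7% ± 0.319 (SD, n = 3), and NFKB1 was at 27.1% ± 0.122 and 25.0% ± 0.907 (SD, n = 3). For these 4 shares the groups did not overlap, and each exact two-sided permutation test gave p = 0.1, the smallest that 3 libraries against 3 allow. The shares of a library add up to the whole pool, so they constrain each other and these tests are not separate results. The share of NFKB2 was 4.94% ± 0.160 in wild-type and 4.83% ± 0.150 in mutant libraries (SD, n = 3; exact permutation test, p = 0.4). Without division by length the difference for REL was -9.37 percentage points in place of -3.37, and the small differences of NFKB1 and NFKB2 changed sign.

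**Figure D4:**
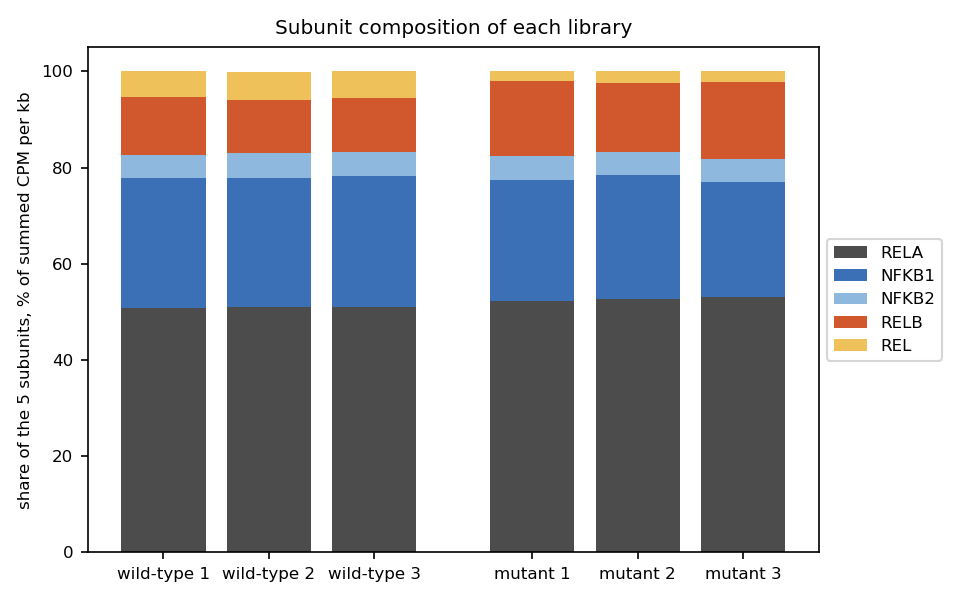
Share of each subunit in the summed CPM per kb of the 5 subunits (y axis, percent), with 1 stacked bar per library. REL, at the top, narrows from between 5.45% and 5.93% to between 2.11% and 2.39%, while RELB widens.

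Ratios within a library need no scaling between libraries. The CPM ratio of REL to RELA was 0.381, 0.411 and 0.378 in wild-type libraries and 0.143, 0.160 and 0.150 in mutant libraries. REL counts exceeded RELB counts in every wild-type library (ratio 2.26, 2.64 and 2.34) and were below them in every mutant library (0.674, 0.813 and 0.690). That order holds only for counts not divided by transcript length. In CPM per kb, RELB was above REL in both groups. The levels were 12.1 ± 0.455 against 5.94 ± 0.276 in wild-type and 16.4 ± 1.05 against 2.41 ± 0.147 in mutant libraries. The summed CPM per kb of the 5 inhibitors relative to the 5 subunits was 0.403 ± 0.00726 in wild-type and 0.467 ± 0.0160 in mutant libraries. For each of these ratios the exact permutation test over n = 3 libraries a group gave p = 0.1, the smallest possible. The ratio of NFKB2 to NFKB1 overlapped between groups (0.153 ± 0.00561 and 0.162 ± 0.00723, n = 3; exact permutation test, p = 0.2).

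Upstream of the inhibitors, in the canonical arm, 7 of 26 tested genes for IKK activation rose, 9 fell and 10 missed the threshold (median log2 fold change -0.02). The changed share was 61.5%, below the 70.1% over all tested genes, which likewise split almost evenly between higher (35.4%) and lower (34.8%). PRKCB, a kinase that acts downstream of the B cell receptor, rose 3.53-fold, from 23.0 ± 1.13 to 81.3 ± 4.28 CPM (edgeR, adjusted p = 1.80e-17). TAB2, an adaptor of the TAK1 kinase, rose 1.58-fold. IRAK1 (1.31-fold) and MYD88 (1.22-fold), of Toll-like receptor signalling, and TANK (1.36-fold), which binds TRAF proteins, fell. Of the IKK complex itself, named outside the rule and after its values were seen, CHUK (log2 fold change -0.22) and IKBKG (-0.27) fell, and IKBKB (0.09) did not pass the test.

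The alternative arm, in which the kinase NIK leads to processing of the NFKB2 precursor, was examined in 12 genes, of which 3 were too low to test. Of the 9 tested, 6 rose, 2 fell and 1 missed the threshold (median log2 fold change 0.30). That is 88.9% changed in a list of 9, beside 70.1% of all tested genes, of which 35.4% rose. The receptors for BAFF family ligands moved apart. TNFRSF13B (TACI) rose 5.59-fold, from 2.49 ± 0.0782 to 13.9 ± 0.419 CPM (edgeR, adjusted p = 4.31e-15), and TNFRSF13C (the BAFF receptor) fell 2.08-fold, from 9.43 ± 0.522 to 4.54 ± 0.153 CPM (edgeR, adjusted p = 3.37e-09). MAP3K14, encoding NIK, rose 1.33-fold. BIRC2, a ubiquitin ligase that keeps NIK low, rose 1.23-fold, and TRAF3, the adaptor that brings NIK to it, fell 1.22-fold.

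Of 15 tested feedback inhibitors and deubiquitinases, 6 rose, 6 fell and 3 missed the threshold (median log2 fold change -0.07). The changed share was 80.0%, beside 70.1% of all tested genes, with a nearly even split between higher and lower in both. TNFAIP3 (A20), the ubiquitin editing enzyme often lost in lymphoma, rose from 9.10 ± 1.21 to 16.4 ± 0.229 CPM, or 1.81-fold (edgeR, adjusted p = 1.20e-08). The deubiquitinase genes OTUD7B (1.75-fold) and CYLD (1.41-fold) and the adaptor gene TAX1BP1 (1.26-fold) also rose, whereas TNIP1, encoding a partner of A20, fell 1.28-fold. In the machinery that destroys IκB, 3 of 8 genes rose, 4 fell and 1 missed the threshold (median log2 fold change -0.01), so 87.5% of these 8 changed, beside 70.1% of all tested genes (35.4% higher and 34.8% lower). BTRC, encoding the ligase subunit that recognises phosphorylated IκB, fell 1.43-fold to 8.87 ± 0.0552 CPM, and SKP1 (1.31-fold) and UBE2M (1.17-fold) fell with it. CUL1 and RBX1, the scaffold and ring subunits, rose 1.12-fold and 1.10-fold.

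Of 53 known NF-κB target genes in the table, 21 were too low to test, and of the 32 tested, 10 rose, 11 fell and 11 missed the threshold (median log2 fold change 0.06). The changed share of 65.6% was near the 70.1% over all tested genes, whose changes split about evenly too (35.4% higher and 34.8% lower). TNFAIP3, TNIP1, BIRC3 and CD40 stand on this list as well as on one of those above. The genes with the smallest p were IRF4 (5.12-fold higher), IRF1 (4.19-fold higher), ICAM1 (4.23-fold higher), the survival gene BCL2L1 (1.89-fold higher) and CXCR5 (2.51-fold lower). ICAM1, an adhesion molecule gene, went from 2.88 ± 0.294 to 12.2 ± 0.445 CPM (edgeR, adjusted p = 1.56e-13). Chosen after their values were seen, the ligand genes TNF, LTA and LTB fell (log2 fold changes -1.89, -1.53 and -1.55).

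**Figure D5:**
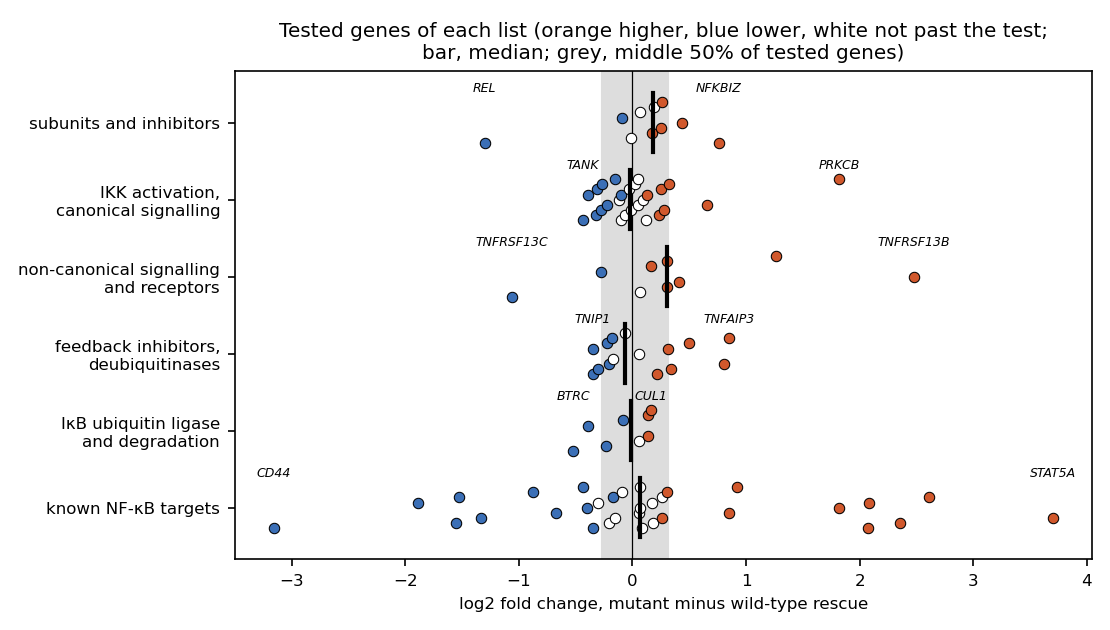
Log2 fold change of each tested gene (x axis), mutant minus wild-type, by list, with the median as a bar and the middle 50% of all tested genes in grey; the lowest and highest gene of each list are named. Every list holds genes on both sides of 0, and the targets spread widest.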

How the data were processed

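Trizol RNA was made into Illumina TruSeq RNA libraries, per the labels' protocols. The submitters' processing notes name CASAVA 1.8.2, STAR, edgeR and build hg19. No source used here gives the read counter, annotation or strand setting. The values are unnormalised counts by gene symbol as deposited, 1 column per sample. The counts were analysed in R 4.3.3 with edgeR 4.0.16: filterByExpr kept 12406 of 23250 genes, libraries were scaled with TMM, and glmQLFTest (robust) compared the rescues without covariates, with Benjamini-Hochberg adjustment over all tested genes and a threshold of 0.05. The test was tried on simulated data. Standard errors were taken as the log2 fold change over the square root of F. Replicate pairs differed by more than counting noise (chi-square per degree of freedom 1.60 to 5.47). The largest values were those of the pairs with mutant replicate 2 (5.47 and 4.36). A floor of 3 counts is 0.109 to 0.114 CPM and covers counting error only. Alternatives were other scalings and filters, DESeq2 1.42.0, limma-voom (limma 3.58.1), glmTreat, a replicate block and leaving out each library. Members and lists were chosen with earlier results of these data known. The text names all members, BCL6, and up to 5 genes per list by smallest p; others are marked.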

Additional observations from a re-analysis of the deposited data

How the results depend on the processing

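The alternatives were other scalings, tools and filters, a replicate block, a minimum change of 1.2-fold and leaving out each of the 6 libraries. REL (-1.34 to -1.25), RELB (0.39 to 0.48) and NFKBIZ (0.73 to 0.80) kept their direction and call on the log2 scale under all 15. NFKBIE (0.24 to 0.29) kept its call under 14 and lost it only against 1.2-fold. The smaller changes of the other members depended more on the setting. With library size scaling NFKB1 missed the threshold (-0.07), RELA passed it (0.09), NFKB2 changed sign (0.01) and 1 member fell. BCL3 passed without a filter (0.18), and RELA passed with at least 1 CPM required in all libraries (0.08), where NFKB2 was at 0.00. Against 1.2-fold, NFKB1 (-0.09), NFKBIA (0.25), NFKBIB (0.17) and NFKBIE (0.26) were not called, so 2 members rose and 1 fell. Under the same requirement 2 genes rose and 2 fell on the IKK list, 3 rose and 1 fell on the alternative arm's list, 4 feedback inhibitors rose and 1 fell, 0 genes of IκB destruction rose and 2 fell, and 8 targets rose and 10 fell, beside 37.0% of all tested genes that passed. The cause of these differences was not tested, beyond the stricter requirement of the 1.2-fold test.

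Leaving out 1 library at a time gave log2 fold changes of -0.11 to -0.08 for NFKB1, -0.04 to 0.01 for NFKB2, 0.05 to 0.08 for RELA, 0.17 to 0.37 for NFKBIA, 0.12 to 0.24 for NFKBIB and 0.11 to 0.26 for BCL3, and between 1 and 2 members fell. NFKB2 was above 0 at 0.01 without wild-type replicate 2 and without mutant replicate 2. With mean transcript lengths the differences in subunit share were -2.89 percentage points for REL, 2.23 for RELA and 2.60 for RELB. With no division by length they were -9.37 for REL, 5.59 for RELA, 0.298 for NFKB1 and 0.303 for NFKB2.

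With the replicate number as a block, RELA (0.07; edgeR, adjusted p = 0.0171) and BCL3 (0.19; adjusted p = 0.0151) passed, no other member's call changed, and 9285 of all tested genes passed in place of 8702. Deviations from the group means of same-numbered libraries correlated at 0.136, 0.172 and -0.055. Wild-type replicates 1 and 2 correlated best with the mutant library of their own number, and wild-type replicate 3 with mutant replicate 1 (0.049). Whether the number marks a shared batch was not tested. Depth leaves NFKBIZ with the fewest counts of the 10 genes, at 139 to 246 a library.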

Other observations

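The genes around REL in RefSeq order (GRCh38.p14), chosen after the fall of REL was seen, moved in both directions. Of all tested genes, 35.4% rose and 34.8% fell. PUS10, the nearest counted gene on one side, had 25.0 ± 0.771 CPM in wild-type and 25.3 ± 1.61 in mutant libraries, a difference that missed the threshold (log2 fold change 0.01, 95% interval -0.11 to 0.14; edgeR, adjusted p = 0.83). PAPOLG, the nearest on the other side, rose by 0.11 on the log2 scale (edgeR, adjusted p = 0.0365). Beyond PAPOLG, BCL11A, a transcription factor gene of the B lineage 327.6 kb from REL, fell 1.82-fold, from 13.7 ± 0.824 to 7.53 ± 0.438 CPM. MIR4432, the next gene, had no counts. FANCL, 2640.2 kb from REL, fell by 0.20 on the log2 scale (edgeR, adjusted p = 0.00533). Beyond PUS10, PEX13 did not pass the test (log2 fold change -0.14), and KIAA1841 (0.28) and C2orf74 (0.38) rose.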
